A study of Homo sapiens with 8 samples.

Results

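Histone acetyltransferase genes were followed as a set of 10 members, CREBBP, EP300, KAT2A, KAT2B, KAT5, KAT6A, KAT6B, KAT7, KAT8 and NCOA3, out of 20046 protein-coding genes of the annotation. They were chosen by name as CREBBP, its paralogue and other genes with acetyltransferase activity, and not by their acetylation. H3K27ac ChIP-seq was performed on HCEC-1CT cells, a line of human colonic epithelial cells immortalized with CDK4 and hTERT, with 3 parental (WT) libraries and 3 libraries of the genotype labelled CBP KO (CREBBP-KO). The KO cells were raised with a synthetic guide in cells that carry a doxycycline-inducible Cas9, and the methods call the cells of this assay monoclonal, while also describing final populations made by pooling several clones. Which of these was used for each library is not given in the sources used here. The 3 libraries of each genotype are numbered as replicates and were taken as independent populations of growing cells. Every peak in a gene body (GENCODE release 44, hg38) or within 20 kb of it was taken, which gave 604 peaks over the 6 lists and 156 merged intervals in the 10 loci, of 143733 in the genome.

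Acetylation of lysine 27 of histone H3 marks active promoters and enhancers, and CREBBP and EP300 are its main writers. The other members belong to families with different preferred lysines. KAT2A and KAT2B (GCN5 and PCAF) act within SAGA and ATAC complexes on histone H3, and the MYST enzymes KAT5, KAT6A, KAT6B, KAT7 and KAT8 acetylate H3, H4 or H2A variants within complexes such as NuA4, MSL and NSL. NCOA3 is a nuclear receptor coactivator that recruits CREBBP and EP300. The question was whether the genes of the remaining enzymes gained acetylation when CREBBP was lost.

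The site matched by a guide against CREBBP is shown because it lies under one of the acetylated intervals described below. Whether this guide made the cells of these libraries was not checked. The crRNA named CREBBP 2 matched hg38 exactly 1 time on both strands of the chromosomes, at chr16:3850486-3850505 on the minus strand, in coding sequence of exon 2 of CREBBP, and is followed by the PAM GGG. Read on the strand of the gene, with the protospacer in capitals and 20 bases on either side, the reference is as follows.
CREBBP 2 site: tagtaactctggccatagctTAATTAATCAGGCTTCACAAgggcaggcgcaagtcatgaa

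The promoters of 4 members that hold TGACG, the core of the cAMP response element, on either strand (in capitals) are shown over the 250 bases before the start (RefSeq, GRCh38.p14). They are printed because CREBBP was named for binding the factor CREB, which recognises this element. Of the 8 members matched in the promoter table, these 4 held it, against 21.2% of the 35116 promoters of the table. Of 55 promoters of the partner genes described below, 14 held it. The core contains a CG dinucleotide, and the median number of these was 24.5 over the 8 members and 11 over the table. The full element TGACGTCA was found in 0 of the 8 and in 1.65% of all promoters. In KAT5 and KAT7 the core occurred as an inverted pair separated by 2 bases.
CREBBP promoter, chr16:3880714-3880963, minus strand: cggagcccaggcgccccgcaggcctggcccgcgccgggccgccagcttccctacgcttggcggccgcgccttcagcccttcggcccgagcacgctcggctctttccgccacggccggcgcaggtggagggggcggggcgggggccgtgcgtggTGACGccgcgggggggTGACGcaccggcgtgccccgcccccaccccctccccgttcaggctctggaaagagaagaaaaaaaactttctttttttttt
KAT2A promoter, chr17:42121368-42121617, minus strand: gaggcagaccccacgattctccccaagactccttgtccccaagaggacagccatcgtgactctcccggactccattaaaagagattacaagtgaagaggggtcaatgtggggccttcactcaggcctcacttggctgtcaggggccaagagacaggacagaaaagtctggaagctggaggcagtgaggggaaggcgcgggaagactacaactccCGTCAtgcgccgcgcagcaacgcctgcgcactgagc
KAT5 promoter, chr11:65712002-65712251, plus strand: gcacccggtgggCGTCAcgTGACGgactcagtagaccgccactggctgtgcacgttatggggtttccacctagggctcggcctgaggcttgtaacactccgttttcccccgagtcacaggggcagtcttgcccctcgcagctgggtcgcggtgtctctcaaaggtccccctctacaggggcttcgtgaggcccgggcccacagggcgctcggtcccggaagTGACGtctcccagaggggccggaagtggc
KAT7 promoter, chr17:49788431-49788680, plus strand: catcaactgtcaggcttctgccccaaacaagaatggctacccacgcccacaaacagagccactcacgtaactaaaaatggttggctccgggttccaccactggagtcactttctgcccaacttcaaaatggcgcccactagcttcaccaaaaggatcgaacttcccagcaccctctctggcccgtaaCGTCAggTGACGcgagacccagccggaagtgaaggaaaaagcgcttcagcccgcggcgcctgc

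The remaining motifs searched on both strands were rarer or common everywhere. The GC box GGGCGG was found in 2 of the 8 (KAT2B and CREBBP) against 42.6% of all promoters, the ETS motif CCGGAAG in 2 (KAT5 and KAT7) against 8.52%, the E-box CACGTG in 1 (KAT5) against 6.34% and the NRF1 core GCGCATG in 1 (KAT2A) against 3.77%. The YY1 core AAGATGGC and the AP-1 motif (TGAGTCA or TGACTCA) were found in 0 of the 8, against 1.36% and 4.2%. These are matches of letters in a window and not measured binding. The median GC content of the 8 promoters was 67.2%, against 58% over the table.

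The lists of the 2 genotypes differed in length, and this bears on every percentile below. The WT lists held 86163 to 93567 peaks over 149.7 to 161.6 Mb and the CREBBP-KO lists 99008 to 111697 peaks over 154.4 to 173.8 Mb. The lists hold no reads, so they show neither the depth of each library nor the edit itself. Of the markers of the labelled cell type, the epithelial CDH1 and KRT19 and the intestinal CDX1, CDX2, VIL1 and LGR5 had no promoter peak in any library, EPCAM and KRT8 had one in all 6 at percentiles 0.175 to 73.5, and KRT18 in 5. The mesenchymal VIM and COL1A1 stood at 96.2 to 99.9, so the cells are called here by the name of the line. PTPRC had no promoter peak and PECAM1 had one in 3 libraries.

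The level of a promoter was read from the highest peak within 1 kb on either side of any start of the gene that the annotation lists as protein-coding. The fold is the ratio of column 7 of the deposited lists, and the percentile is the rank of that fold within its own list, where 100 is the highest peak. Fold and percentile rank a mark on one gene against others, and do not measure RNA or protein. In these bulk samples a change in every cell and a change in a share of the cells cannot be told apart.

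All 10 promoters carried a peak in all 6 libraries, and the same genes stood highest and lowest in both genotypes. In WT it ran from KAT5 at percentile 99.5 ± 0.138 (SD, n = 3) and EP300 at 99.3 ± 0.196 through CREBBP (96.6 ± 1.9), KAT7 (95.6 ± 1.59), KAT6B (90.7 ± 1.41), KAT8 (88.1 ± 4.78), NCOA3 (83.4 ± 4.65) and KAT6A (81.7 ± 1.53) to KAT2B (72.4 ± 6.9) and KAT2A (71.9 ± 4.55). Neighbours in this order overlapped in their libraries, except between EP300 and CREBBP, between KAT7 and KAT6B and between KAT6A and KAT2B. In CREBBP-KO, EP300 (99.4 ± 0.117) and KAT5 (99.4 ± 0.59) again stood first and overlapped, and KAT2A (86.6 ± 3.67) and KAT2B (80.6 ± 4.61) stood last and overlapped. The neighbours that did not overlap in CREBBP-KO were CREBBP and KAT7, KAT7 and KAT6B, and KAT6B and NCOA3.

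**Figure D1:**
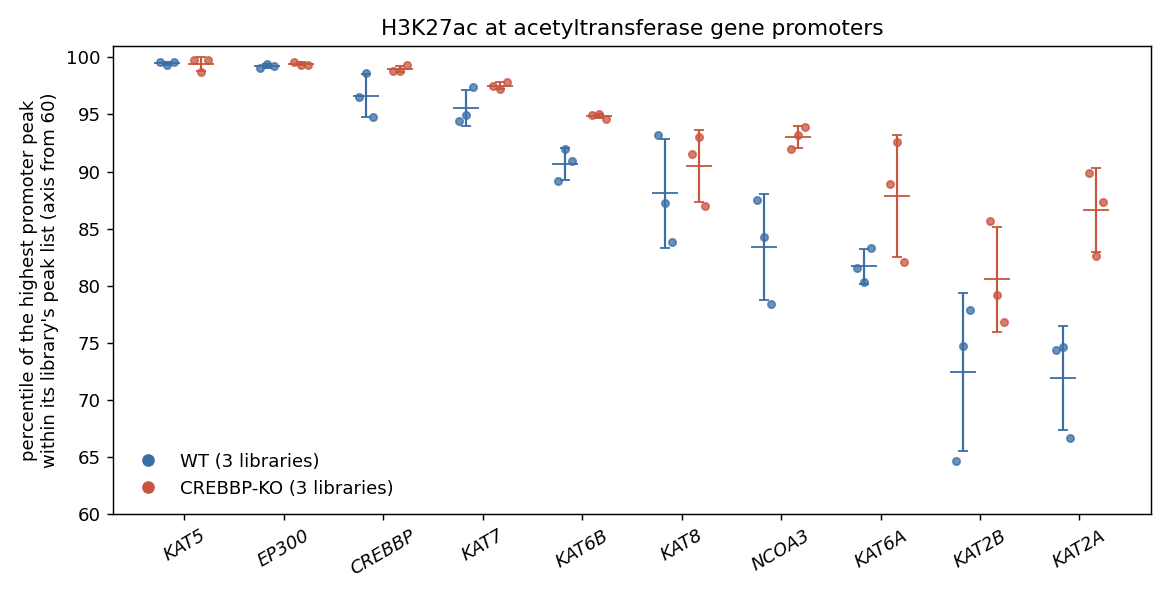
Percentile of the highest promoter peak of each gene within its library's list (vertical axis), with 1 point for each of the 3 WT and 3 CREBBP-KO libraries, the mean as a horizontal line and the SD as bars. The points of the 2 genotypes do not overlap at CREBBP, KAT6B, NCOA3 and KAT2A, and lie together near 99 at KAT5 and EP300.

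For most members the percentile was higher in CREBBP-KO, as it was for most promoters of the genome. The difference between genotypes had a median of 3.32 percentile points over the 10 members and 3.26 over all 12325 promoters with a peak in the 6 libraries. All 3 CREBBP-KO percentiles lay above all 3 WT percentiles at 4 members (CREBBP, KAT2A, KAT6B and NCOA3), against 45% of all promoters, and the reverse held at 0 members, against 7.7%. No single value can pass 0.05 with 3 libraries against 3, where the two-sided exact permutation test cannot go below p = 0.1.

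To compare members with the other promoters rather than with the whole list, the promoters were ranked among themselves in each library and the ranks, as normal scores, were fitted with limma. On this scale 0 of the 10 members passed an adjusted p of 0.05 (Benjamini-Hochberg over 12325 promoters) in either direction, while 14.5% of all promoters were higher and 14% lower in CREBBP-KO. At an unadjusted p of 0.05, 2 members were higher (KAT2A and NCOA3) and 0 lower, against 20.6% and 19.7% of all promoters. The median shift was 0.11 normal-score units over the members and 0.01 over all promoters.

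CREBBP (ENSG00000005339.15, chromosome 16 from 3725054 to 3880713, minus strand) encodes the coactivator that was knocked out. The fold at its promoter was 18.0, 20.98 and 16.1 in the WT libraries and 24.1, 25.9 and 28.9 in CREBBP-KO. The percentiles were 96.5, 98.6 and 94.8 in WT and 98.8, 98.8 and 99.3 in CREBBP-KO. The ranges did not overlap, and every library ranked this promoter above percentile 94 of its list. Among promoters the shift was 0.39 ± 0.22 normal-score units (SE, limma, adjusted p = 0.197). It reached an adjusted p of 0.0441 when WT replicate 2, the highest WT library at this promoter, was left out. With other single libraries left out the shift was as low as 0.18 and the adjusted p up to 0.573.

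EP300 (ENSG00000100393.15, chromosome 22 from 41092592 to 41180077), the paralogue of CREBBP, had promoter folds of 24.3, 24.8 and 24.7 in WT and 29.4, 29.0 and 29.3 in CREBBP-KO. The percentiles, 99.1, 99.5 and 99.3 in WT and 99.6, 99.4 and 99.4 in CREBBP-KO, overlapped (exact permutation test, p = 0.3). Fold and percentile thus gave different pictures of the same peak. The folds did not overlap, as was also the case at CREBBP, KAT2A, KAT6B, KAT7 and NCOA3. The share of all promoters with such folds is not given here, and folds were tested only as ranks. The rank of EP300 within the list did overlap, and its shift among promoters was −0.08 ± 0.17 (SE, limma, adjusted p = 0.751).

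Of the GNAT pair, KAT2A (ENSG00000108773.11, chromosome 17 from 42113111 to 42121367, minus strand), the catalytic subunit of SAGA, had the largest difference in percentile of any member. Its folds were 7.40, 7.45 and 6.19 in WT and 12.2, 9.46 and 12.1 in CREBBP-KO, and its percentiles 74.4, 74.6 and 66.6 against 89.8, 82.6 and 87.4. The 2 genotypes were clearly apart, with 14.7 percentile points between the means, and the shift among promoters was 0.53 ± 0.20 (SE, limma, adjusted p = 0.0619). Without CREBBP-KO replicate 2 the adjusted p was 0.0322, and without other single libraries it was up to 0.209. Its paralogue KAT2B (ENSG00000114166.8, chromosome 3 from 20040446 to 20154404) had folds of 5.74, 7.47 and 8.47 in WT and 10.0, 8.27 and 7.91 in CREBBP-KO. These overlapped, and the shift of KAT2B was 0.01 ± 0.21 (SE, limma, adjusted p = 0.986). The difference between the paralogues in their response was not tested.

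Of the MYST members, KAT5 (ENSG00000172977.13, chromosome 11 from 65711996 to 65719604), the TIP60 enzyme of NuA4, was at the top of both genotypes. Its folds were 27.8, 23.9 and 26.7 in WT and 32.0, 25.3 and 33.4 in CREBBP-KO, which overlapped, and its shift was −0.17 ± 0.21 (SE, limma, adjusted p = 0.565). Ranked by −log10 p it was −0.60 (adjusted p = 0.042), the only member promoter to pass as lower under any alternative. KAT6A (ENSG00000083168.11, chromosome 8 from 41929479 to 42051994, minus strand), which acetylates H3 as the catalytic subunit of the MOZ complex, had folds of 9.24, 8.80 and 10.1 in WT and 11.6, 15.0 and 9.65 in CREBBP-KO. The third CREBBP-KO library lay within the WT range.

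KAT6B (ENSG00000156650.14, chromosome 10 from 74824927 to 75032624), the paralogue of KAT6A, had promoter folds of 12.2, 13.3 and 13.3 in WT and 16.3, 17.5 and 17.7 in CREBBP-KO. Its percentiles had means of 90.7 and 94.9 and did not overlap (exact permutation test, p = 0.1), and among promoters its shift was 0.18 ± 0.18 (SE, limma, adjusted p = 0.475). KAT7 (ENSG00000136504.15, chromosome 17 from 49788624 to 49835026), also known as HBO1, whose promoter window overlaps that of FAM117A, had folds of 15.6, 15.5 and 19.2 in WT and 20.3, 20.9 and 22.8 in CREBBP-KO. KAT8 (ENSG00000103510.20, chromosome 16 from 31114489 to 31131393), also known as MOF and the main writer of H4 lysine 16 acetylation, had folds of 14.6, 11.03 and 10.2 against 13.3, 15.4 and 11.9. The percentiles of KAT7 and KAT8 overlapped between genotypes, and adjusted p was 0.721 and 0.667.

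NCOA3 (ENSG00000124151.19, chromosome 20 from 47501887 to 47656877), the p160 coactivator, had promoter folds of 11.4, 9.97 and 8.56 in WT and 13.6, 15.6 and 16.9 in CREBBP-KO. The percentiles were 87.5, 84.2 and 78.4 against 92.0, 93.2 and 93.9, and every CREBBP-KO library lay above every WT library. The shift among promoters was 0.50 ± 0.20 (SE, limma, adjusted p = 0.0754). The adjusted p was 0.0369 without WT replicate 1, and up to 0.291 without other single libraries.

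The 3 protein-coding genes named here had promoter scores closest to those of CREBBP by root mean square difference over the 6 libraries, GLIS3 (0.165), FOXL1 (0.182) and SP3 (0.187). They stood, like CREBBP, above percentile 93 in every library.

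Promoters are only a part of each locus. Of the 156 merged intervals, 35 reached a fold of 5 in all 3 libraries of a genotype, and all 35 had a peak in all 6 libraries and were tested together with the other intervals of the genome (34864). They were made up of 10 canonical promoters, 2 intervals at alternative starts, 17 other intragenic intervals and 6 in the flanks. An interval was ranked by its highest fold among all tested intervals, and its shift is CREBBP-KO minus WT in normal-score units.

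Of the 35 intervals, 9 were higher and 5 lower in CREBBP-KO (limma, adjusted p under 0.05). Of all 34864 intervals, 18.6% were higher and 18.7% lower. Without CREBBP-KO replicate 3 the number higher was 5. Of the 14, 7 had entered the test through 1 genotype alone, the one in which they were high, so their difference was in part selected. These are 4 of the higher (intron 2 of CREBBP, the 3′ end of KAT2A, the flank of KAT7 and 1 in intron 1 of NCOA3) and 3 of the lower (1 in intron 3 of KAT6B, and 1 each in introns 1 and 2 of NCOA3). Of the 20 member intervals that passed the filter in both genotypes, 5 were higher and 2 lower, beside 4071 and 4137 of 26259 in the genome.

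Filters that do not look at 1 genotype were added after the data were seen. With no fold filter and a peak in all 6 libraries, 7 of the 35 intervals were higher and 5 lower. Of all 52187 intervals then tested, 6544 were higher and 6318 lower. With a mean fold of at least 5 over the 6 libraries, 34 of the 35 were tested, and 7 were higher and 4 lower. Of all 36133 intervals under that filter, 5810 were higher and 5756 lower. Other member intervals that these filters admit were not counted. The member counts thus cover only intervals already chosen by the fold filter of 5 within a genotype. Of the 7 intervals selected by 1 genotype, 5 passed under both filters, and those in intron 1 of NCOA3 did not. All 3 CREBBP-KO percentiles were above all 3 WT percentiles in 16 of the 35, against 34.2% of all intervals, and below them in 5, against 15.2%. The median shift over the 35 was 0.31, and 0.02 over all intervals.

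Promoter intervals and the rest of the genome differed in direction. Of 11577 intervals that overlapped a promoter window of any gene, 25.9% were higher and 8.98% lower, with a median shift of 0.20. Outside promoter windows 14.9% were higher and 23.6% lower, with a median of −0.10. Of the 10 canonical promoters of the members, 3 were higher (CREBBP, KAT2A and NCOA3) and 0 lower. Of the 18 member intervals outside every promoter window, 3 were higher and 4 lower, with a median shift of 0.00.

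**Figure D2:**
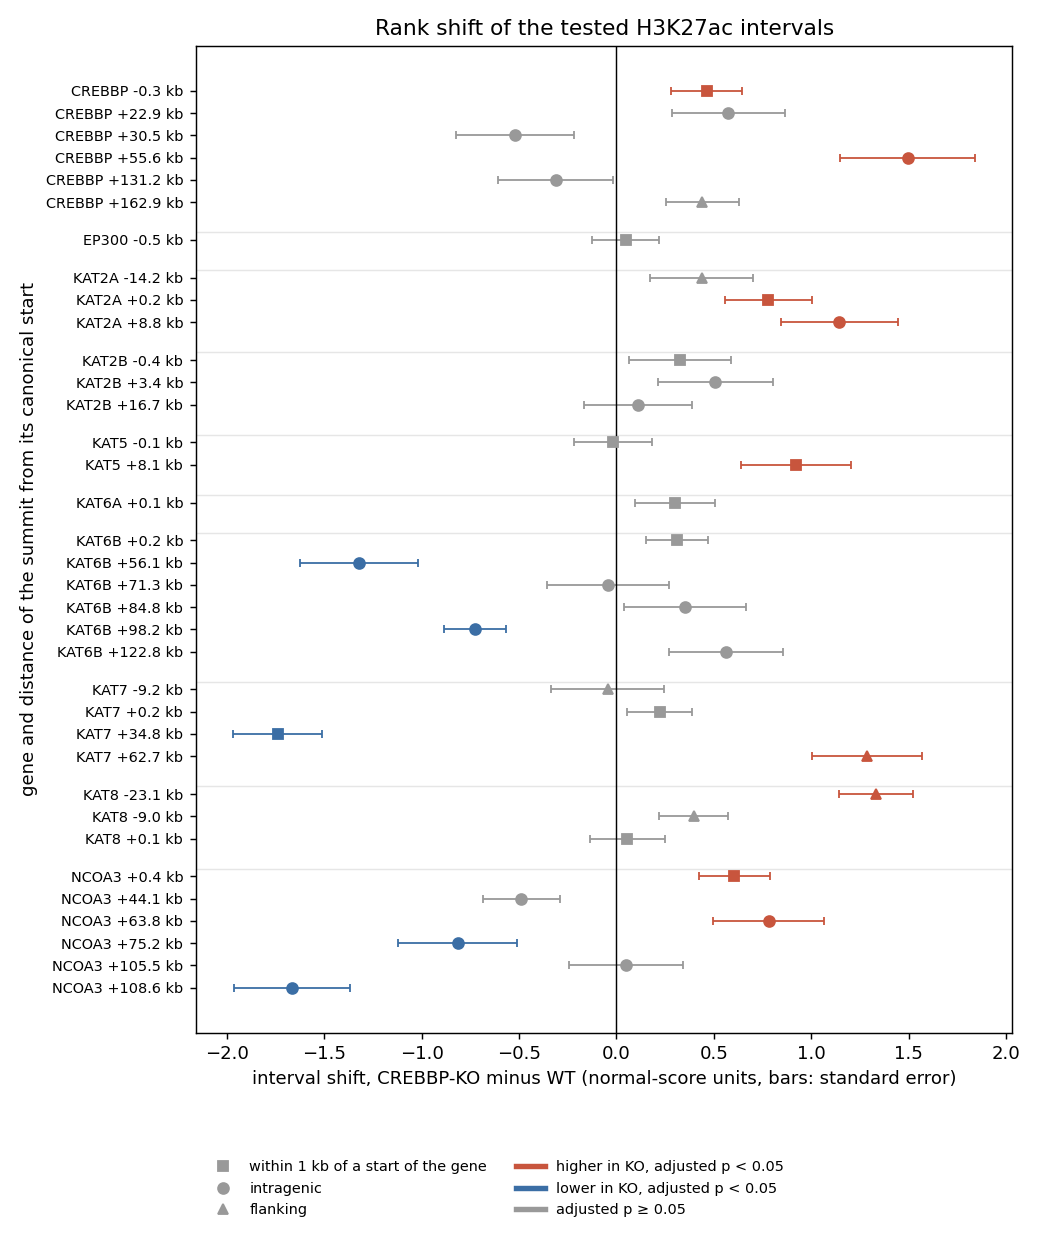
Shift of each of the 35 tested intervals (horizontal axis, normal-score units, CREBBP-KO minus WT, bars are the standard error), grouped by gene and labelled by the distance of the summit from the canonical start. Colours mark the 9 intervals higher and 5 lower at an adjusted p under 0.05, and symbols mark promoter, intragenic and flanking intervals. The largest falls lie inside KAT7 and NCOA3 and the largest rise inside CREBBP.

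The 3 member promoters that passed in this fit did not pass when ranked against promoters alone. The promoter interval of KAT2A shifted by 0.78 ± 0.22 (SE, limma, adjusted p = 0.00922), that of NCOA3 by 0.61 ± 0.18 (adjusted p = 0.0119) and that of CREBBP by 0.46 ± 0.18 (adjusted p = 0.047). The call at CREBBP was lost without any 1 library except WT replicate 2, with adjusted p up to 0.179. That at KAT2A was lost without CREBBP-KO replicate 1 (adjusted p = 0.0551) and that at NCOA3 without CREBBP-KO replicate 3 (adjusted p = 0.0621). Ranked by −log10 p, the shift was 0.15 at CREBBP (adjusted p = 0.457) and 0.34 at NCOA3 (adjusted p = 0.0653). With no fold filter the adjusted p at CREBBP was 0.0656. With scores centred within bins of GC content, which was added after the data were seen, CREBBP (adjusted p = 0.301) and KAT2A (adjusted p = 0.0983) no longer passed.

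The windows printed next lie inside genes and are shown to let their base composition be compared with the promoters above. They belong to the interval that rose most, the one that fell most and the highest intragenic one. The interval that fell most is counted at an alternative start, since its edge reaches such a window. Each printed window is 201 bases of hg38 around the highest summit, with CG dinucleotides in capitals. In order they lie in intron 2 of CREBBP, intron 12 of KAT7 and intron 3 of KAT6B.
CREBBP, chr16:3825017-3825217, plus strand: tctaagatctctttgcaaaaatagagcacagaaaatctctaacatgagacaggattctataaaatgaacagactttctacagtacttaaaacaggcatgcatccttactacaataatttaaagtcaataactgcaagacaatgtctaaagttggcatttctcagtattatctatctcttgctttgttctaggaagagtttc
KAT7, chr17:49823369-49823569, plus strand: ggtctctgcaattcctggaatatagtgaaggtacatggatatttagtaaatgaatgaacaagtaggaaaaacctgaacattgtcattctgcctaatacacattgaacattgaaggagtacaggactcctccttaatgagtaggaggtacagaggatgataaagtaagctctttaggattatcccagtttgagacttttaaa
KAT6B, chr10:74924700-74924900, plus strand: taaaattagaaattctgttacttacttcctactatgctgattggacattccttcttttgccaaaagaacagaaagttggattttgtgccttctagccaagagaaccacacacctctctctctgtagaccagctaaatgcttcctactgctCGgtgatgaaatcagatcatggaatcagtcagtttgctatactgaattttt

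The windows in CREBBP and KAT7 held 0 CG dinucleotides and that in KAT6B 1, with GC contents of 32.8%, 36.8% and 38.3%. Over all tested intervals outside promoter windows the medians were 2 CG and 44.8% GC, and over promoter intervals 15 CG and 66.2%. The AP-1 motif was found in 1 of the 18 member windows outside promoters, that of chr20:47606492-47608018 in intron 2 of NCOA3, against 3.45% of the 23281 such windows.

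Inside CREBBP, the interval at chr16:3822425-3826196 in intron 2, 55596 bases into the gene, rose most of all member intervals. Its folds were 4.28, 3.67 and 2.615 in WT and 5.51, 8.61 and 6.07 in CREBBP-KO, and its percentiles 49.7, 38.3 and 5.99 against 67.8, 80.2 and 68.3. The weakest CREBBP-KO library stood well above the strongest WT library, and the shift was 1.495 ± 0.35 (SE, limma, adjusted p = 0.00217). The third WT library was far below the other two. The interval had entered the test through CREBBP-KO, and with no fold filter the shift was 1.31 (adjusted p = 0.00586).

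The interval over the guide site, chr16:3846857-3851343, had its summit 255 bases from the site. A peak covered the site in all 6 libraries, at percentiles 71.5, 60.9 and 64.1 in WT and 59.3, 59.99 and 68.0 in CREBBP-KO. The ranges overlapped and the shift, −0.52 ± 0.30 (SE, limma, adjusted p = 0.179), did not pass. Of the other intervals of CREBBP, that in intron 1, 22852 bases from the start, was above WT in all 3 CREBBP-KO libraries with a shift of 0.57 (adjusted p = 0.123), that in intron 21, the highest intragenic one by mean percentile, overlapped (66.8, 72.4 and 69.3 against 61.1, 75.5 and 70.6), and that at the neighbouring TRAP1 promoter shifted by 0.44 (adjusted p = 0.0667).

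KAT6B held the highest intragenic interval of any member, at chr10:74920991-74930346 in intron 3, and it was lower in CREBBP-KO. Its folds were 19.4, 18.996 and 18.2 in WT and 12.8, 15.0 and 16.7 in CREBBP-KO, and its percentiles 97.4, 97.7 and 96.7 against 90.9, 92.5 and 93.7. The groups did not overlap, and the shift was −0.73 ± 0.16 (SE, limma, adjusted p = 0.0015). Ranked by −log10 p in place of fold it was −0.28 (adjusted p = 0.117). A weaker interval of the same intron at chr10:74881823-74883981 also fell, from percentiles 65.9, 65.8 and 70.9 to 57.4, 45.2 and 36.7 (shift −1.32 ± 0.30, limma, adjusted p = 0.00185). It had entered the test through WT, and with no fold filter the shift was −0.97 (adjusted p = 0.00929). The other 3 tested intervals of intron 3 had shifts of −0.04, 0.35 and 0.56, none past the threshold. Further intervals of the intron did not meet the filter and were not tested. The promoter interval shifted by 0.31 (limma, adjusted p = 0.129), and whether it differed from the intron was not tested.

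KAT7 showed the largest fall. The interval at chr17:49821335-49825141, whose edge reaches the window of an alternative start and whose summit lies in intron 12, had folds of 12.7, 12.8 and 12.4 in WT and 5.16, 5.77 and 6.57 in CREBBP-KO. The percentiles were 90.2, 91.1 and 89.2 against 65.2, 67.7 and 71.2. The WT libraries were close to each other and far above every CREBBP-KO library, and the shift was −1.74 ± 0.23 (SE, limma, adjusted p = 1.22e-05). In the flank beyond the 3′ end, chr17:49850886-49851882 moved the other way, from percentiles 53.9, 55.5 and 43.7 to 83.1, 73.8 and 78.0 (shift 1.29 ± 0.28, limma, adjusted p = 0.00135). It had entered the test through CREBBP-KO, and with no fold filter the shift was 0.89 (adjusted p = 0.00381).

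NCOA3 had intragenic intervals that moved in both directions. In intron 2, chr20:47609513-47611863 had folds of 6.52, 6.21 and 7.04 in WT and 3.18, 4.11 and 3.59 in CREBBP-KO. Its percentiles fell from 69.8, 67.9 and 71.6 to 26.1, 50.4 and 40.3 (shift −1.67 ± 0.30, limma, adjusted p = 0.000243). It had entered the test through WT, and with no fold filter the shift was −1.28 (adjusted p = 0.00174). Its neighbour in the same intron overlapped between genotypes and shifted by 0.05 (adjusted p = 0.907).

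In intron 1 of NCOA3, chr20:47564656-47565935 was higher (shift 0.78, limma, adjusted p = 0.0349) and chr20:47574613-47578805 lower (shift −0.82, adjusted p = 0.0391). Both calls were fragile, and each interval had entered the test through the genotype in which it was high. With no fold filter the adjusted p was 0.0667 and 0.116. The first was lost without WT replicate 1 or without any CREBBP-KO library (adjusted p up to 0.114), and the second without any WT library or without CREBBP-KO replicate 1 (adjusted p up to 0.201). The highest intragenic interval of the gene, chr20:47541854-47547626, stood at 87.0, 88.9 and 82.3 in WT and 81.0, 83.8 and 79.4 in CREBBP-KO, and its shift of −0.49 did not pass (adjusted p = 0.0558).

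**Figure D3:**
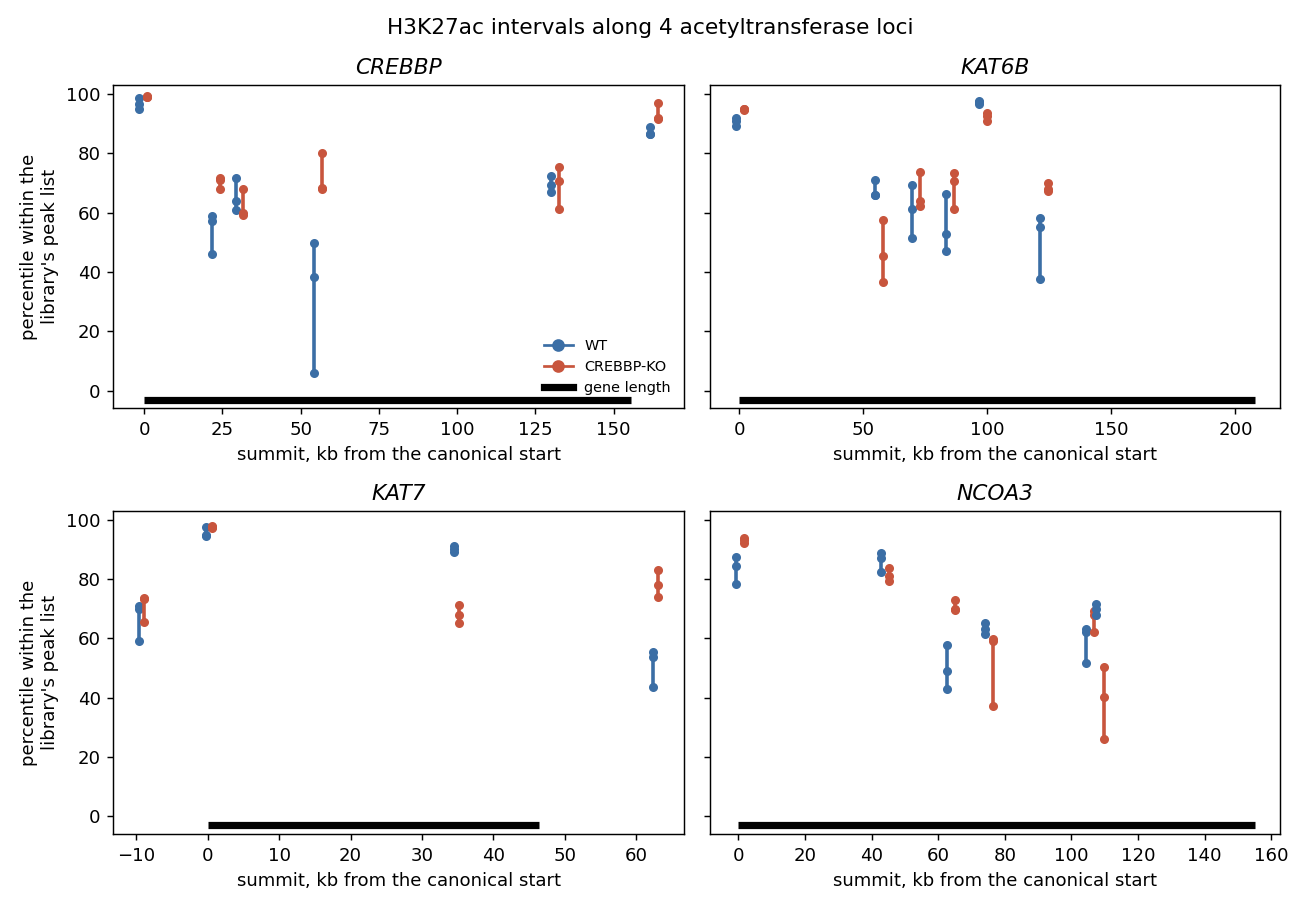
Percentile of each tested interval (vertical axis, 0 to 100) against the distance of its summit from the canonical start in kb, for CREBBP, KAT6B, KAT7 and NCOA3. Points are the 3 libraries of each genotype joined by a line over their range, and the black bar is the length of the gene. WT lies clearly above CREBBP-KO at the interval of intron 12 in KAT7 and at the last interval of NCOA3, and below it at intron 2 of CREBBP.

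The 3 remaining intervals that passed reached promoter windows of neighbouring genes. The interval chr17:42111631-42113755, which overlaps the 3′ end of KAT2A and the window of DHX58 and has its summit past the gene, rose from percentiles 62.4, 39.6 and 44.1 to 79.2, 73.3 and 74.2 (shift 1.14 ± 0.30, limma, adjusted p = 0.00511). It had entered the test through CREBBP-KO, and the adjusted p was 0.0128 with no fold filter and 0.129 when ranked by −log10 p. The interval chr11:65718719-65720971 is one of the 2 at alternative starts, and overlaps the 3′ end of KAT5 and the window of RNASEH2C, with its summit past the gene. It rose from 60.9, 64.9 and 65.6 to 75.3, 81.6 and 88.4 (shift 0.92 ± 0.28, adjusted p = 0.0135). This call rested on CREBBP-KO replicate 3, since the adjusted p was 0.129 without it. The interval chr16:31090360-31095616, upstream of KAT8 in the window of VKORC1, rose from 73.7, 73.3 and 72.7 to 92.7, 93.0 and 95.6 (shift 1.33 ± 0.19, adjusted p = 3.01e-05). The KAT8 one reaches into the flank, but most of it lies beyond the 20 kb. Its value is the highest fold over the whole interval, so it can come from a peak outside the locus. Which gene each acts on was not measured.

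EP300 and KAT6A each had 1 tested interval, the promoter. The highest intragenic interval with a peak in all 6 libraries lay in intron 1 of EP300, at percentiles 38.7, 15.8 and 35.1 in WT and 6.14, 53.9 and 45.7 in CREBBP-KO, and in intron 2 of KAT6A, at 46.4, 39.7 and 49.8 against 54.2, 72.3 and 61.6. Both were too weak to be tested. KAT5 and KAT8 had no intragenic interval outside promoter windows with a peak in all 6 libraries, and in KAT2B the highest, in intron 1, overlapped between genotypes at 73.3, 71.9 and 70.2 against 82.5, 67.9 and 81.6. In KAT7 the highest, at exon 4, stood at 51.9, 55.7 and 50.2 against 55.3, 29.9 and 22.1 and was not tested.

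The amount of each locus under peaks was compared as a share of all bases under peaks of the list. It was higher in CREBBP-KO at 1 member (CREBBP) and lower at 1 (KAT7), against 13% and 10% of the 16102 genes covered in all 6 libraries (limma, adjusted p under 0.05). At CREBBP, peaks covered 24.1, 21.1 and 21.8 kb in WT and 26.6, 34.9 and 35.4 kb in CREBBP-KO. The groups did not overlap, and the difference in share was 0.46 ± 0.09 on the log2 scale (SE, limma, adjusted p = 0.00372). The number of peaks there was 15, 18 and 18 in WT and 22, 25 and 23 in CREBBP-KO. The interval in intron 2 added most, with 1.02 kb on average in WT and 2.92 kb in CREBBP-KO, and the promoter was next, with 3.32 and 4.61 kb.

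At KAT7, peaks covered 11.4, 11.97 and 11.3 kb in WT and 8.71, 9.97 and 8.61 kb in CREBBP-KO, and the difference in share was −0.41 ± 0.10 on the log2 scale (SE, limma, adjusted p = 0.00932). The interval in intron 12 lost most, with 2.97 kb in WT and 2.11 kb in CREBBP-KO. With peaks of fold at least 5 alone the difference at KAT7 was −0.16 (adjusted p = 0.361), and with the gene body alone it was −0.41 (adjusted p = 0.096). At EP300 the bases under peaks overlapped (5.385, 5.11 and 5.17 kb against 3.86, 8.06 and 7.97 kb). The difference in share at EP300 was 0.20 ± 0.21 on the log2 scale (SE, limma, adjusted p = 0.543). Without CREBBP-KO replicate 1, the low library there, EP300 passed with 0.51 (adjusted p = 0.0129). With other single libraries left out the difference was as low as 0.016, with adjusted p up to 0.969. With peaks of fold at least 5 alone it was −0.050.

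**Figure D4:**
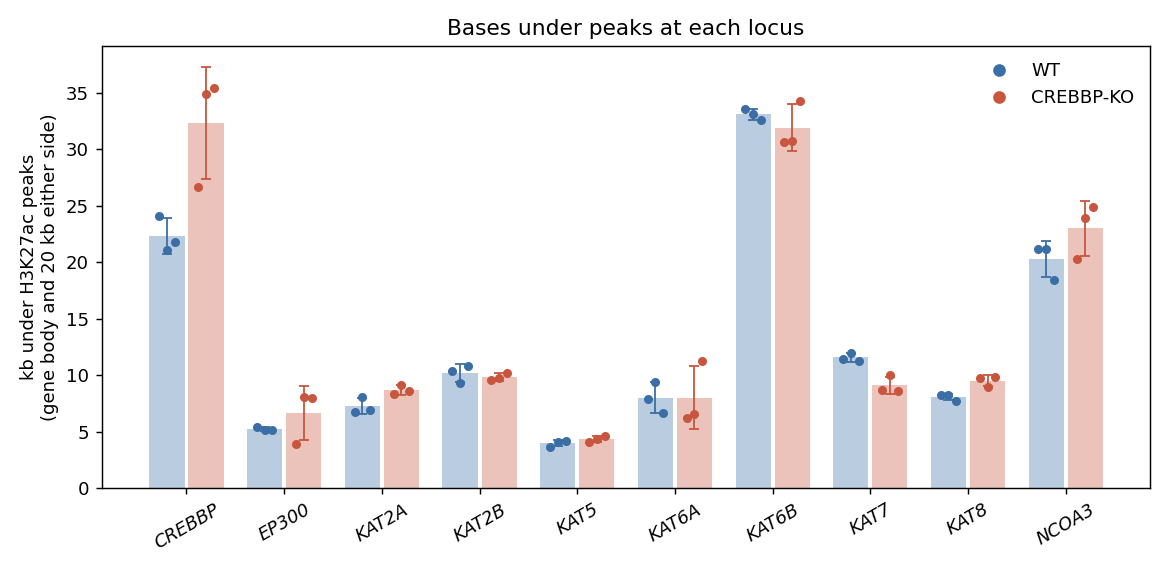
Kilobases under H3K27ac peaks in each gene body with 20 kb on either side (vertical axis from 0). Bars are the mean of 3 libraries, error bars the SD and points the libraries. CREBBP-KO lies above WT without overlap at CREBBP, KAT2A and KAT8 and below it at KAT7. The kilobases are not scaled to the list, and as a share of the list KAT2A overlapped. How many of all genes show such kilobases without overlap is not given here. Of these 4, the share of the list passed the test at CREBBP and KAT7.

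The genes of other acetyltransferases and of the partner subunits of these enzymes were read at their promoters. All 64 had a peak in all 6 libraries, and 7 were higher and 10 lower in the promoter ranking, beside the 14.5% and 14% of all promoters given above. The median shift was −0.11. Ranked by −log10 p, 1 was higher and 4 lower. Of the 10 other acetyltransferases, which include NCOA1, HAT1 and CLOCK, 0 were higher and 1 lower, TAF1 (shift −0.71, limma, adjusted p = 0.0348), a subunit of TFIID. Its percentiles overlapped between genotypes, and the call was lost without any 1 library except WT replicate 3, with adjusted p up to 0.14. The list had a median shift of −0.17.

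Of the 19 SAGA and ATAC subunits, which hold KAT2A or KAT2B, 4 were higher and 4 lower, with a median shift of −0.02. The adaptor TADA1 rose from percentiles 86.5, 90.1 and 91.7 to 99.0, 98.3 and 98.4 (shift 1.13, limma, adjusted p = 0.000629). TADA3 (0.71) and the deubiquitinase USP22 (0.72) were also higher, though not when ranked by −log10 p (0.13 with adjusted p = 0.638, and 0.35 with adjusted p = 0.266). DR1 fell from 99.4, 98.9 and 99.0 to 96.1, 93.5 and 94.8 (shift −1.32, adjusted p = 0.000249), and the shift was −0.44 (adjusted p = 0.0989) when ranked by −log10 p. TAF6L (−1.32), ZZZ3 (−1.17) and ATXN7L3 (−0.93) were also lower, so subunits of the same complexes moved in opposite directions. The call at USP22 was lost without WT replicate 2 or 3 or CREBBP-KO replicate 1 or 2, with adjusted p up to 0.124.

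Of the 17 NuA4/TIP60 subunits, the partners of KAT5, 1 was higher and 3 lower, with a median shift of −0.17. EPC1 rose from folds of 32.2, 27.4 and 27.6 in WT to 49.3, 47.5 and 52.5 in CREBBP-KO (shift 0.99, limma, adjusted p = 0.00104), and 0.39 (adjusted p = 0.0912) when ranked by −log10 p. MBTD1 fell from 98.0, 97.5 and 99.1 to 91.4, 95.2 and 93.1 (shift −1.18, adjusted p = 0.000792), and MEAF6 was lower with −0.71 although its percentiles overlapped, and was −0.37 (adjusted p = 0.134) when ranked by −log10 p. Of the 8 subunits of the KAT6 and KAT7 complexes 0 were higher and 0 lower (median −0.13). Of the 10 MSL and NSL subunits, the partners of KAT8, 2 were higher and 2 lower (median −0.21), among them HCFC1, a cofactor shared with other chromatin complexes, which fell from 99.5, 99.0 and 99.4 to 96.6, 96.0 and 97.8 (shift −1.07, adjusted p = 0.000968; −0.45 with adjusted p = 0.102 when ranked by −log10 p).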

How the data were processed

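H3K27ac ChIP-seq peaks of 3 WT and 3 CREBBP-KO libraries of HCEC-1CT cells were used. Input libraries, 1 for each genotype, were not analysed here. The authors aligned reads to hg38 within the nf-core ChIP-seq pipeline (BWA in the submitters' processing notes) and ran MACS2 on every library by itself to call narrow peaks. Whether the lists precede or follow the downsampling described in the paper is not given in the sources used here. The deposited values are a fold (ratio over local background), −log10 p and −log10 q. The deposited lists hold no read counts, so depth is unknown and no counting interval was computed. The deposited score was not used.

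Peaks that overlapped or touched were joined over the 6 lists. The fold filter of 5 in all 3 libraries of a genotype follows the paper's filter. Ranks (ties averaged) of the highest fold were turned into normal scores and fitted with limma 3.58.1 (lmFit, eBayes with trend) in R 4.3.3, with shifts given as CREBBP-KO minus WT and p-values adjusted (Benjamini-Hochberg) over all intervals, promoters or loci. Single values were compared with two-sided exact permutation tests. Python 3.11.15 was used for the rest. The fits were tested on simulated data.

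The labels give no batch. The labels number the replicates, which were taken as independent populations, so p-values measure the spread between these. Whether they also cover the spread between clones is not given in the sources used here. All members were named. Of their intervals, those past the threshold and the highest intragenic one of each gene were named, and of the partner genes at most 12 past the threshold, by size. The members, gene lists and tests were chosen with earlier results of these data known. The furthest peak of each chromosome lay within its length in the reference. Some items are not reported here.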

Additional observations from a re-analysis of the deposited data

How the results depend on the processing

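The count of member intervals higher in CREBBP-KO was 3 with a fold of at least 10, 4 when ranked by −log10 p, 7 with scores centred on GC content, with no fold filter and with a mean fold of at least 5 (all added after the data were seen) and 5 to 10 with 1 library left out. The count lower was 2 with a fold of at least 10. Of all intervals, 3426 were then higher and 3295 lower, as fewer are tested. Ranked by −log10 p, promoters gave 1 member lower, 665 higher and 722 lower of all, and 1 partner higher and 4 lower. With 1 library left out, 0 to 1 members and 4 to 6 partners were higher, beside 1287 to 1431 of all promoters. For loci, members higher were 2 with peaks of fold at least 5 and 1 to 2 with 1 library left out. Of all loci, 1558 to 1970 were higher with 1 library left out. Members lower were 0 with the gene body alone, 0 with fold at least 5 and 2 with −log10 q of at least 5. Of all loci, 1336 were higher and 936 lower with the gene body alone, 977 and 707 with fold at least 5, and 850 lower with bases not scaled to the list. The cause was not tested.

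Directions that turned were all short of the threshold. Promoter shifts did so at KAT2B (−0.0033 with log2 fold, −0.0064 with the canonical start alone), KAT6A (−0.080) and KAT6B (−0.13) when ranked by −log10 p. With 1 library left out, promoter shifts ran from −0.13 to 0.0090 at EP300, −0.16 to 0.12 at KAT2B, −0.30 to 0.077 at KAT5, −0.12 to 0.36 at KAT6A and −0.36 to 0.10 at KAT8. Locus differences turned with fold at least 5 at EP300 (−0.050), KAT2B (0.087), KAT6A (0.39) and NCOA3 (−0.32), with the gene body alone at KAT8 (−0.058), and ran from −0.33 to 0.011 at KAT6A with 1 library left out.

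Same-numbered libraries deviated together only weakly (correlations −0.107 to 0.0284), so the numbers were not taken as pairs. With the replicate block 9 member intervals were higher and 5 lower, as without it. The lists hold no depth, weak peaks are missing values rather than zeros, and 3 populations of each genotype limit what can be called.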

Other observations

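Of the 156 merged intervals in the loci, 121 were too weak to be tested, and 57 of these had a peak in 1 library alone. Peaks in every CREBBP-KO library but in no WT library were found at 4 of the 121, against 3.51% of the 108869 untested intervals of the genome, and the reverse at 1, against 1.42%. Of the 4, the interval in intron 7 of CREBBP (chr16:3780872-3782210) stood at percentiles 27.4, 38.7 and 19.7, and the one upstream of KAT8 (chr16:31099893-31100990) at 59.0, 57.9 and 52.6. The remaining 2 lie in introns 3 and 13 of KAT6B, at percentiles of 20.7 or below. The interval found in WT alone lies in intron 1 of KAT6B (chr10:74832524-74833786), at 23.1, 44.9 and 14.9. An absent peak in a list is a value under the caller's threshold and not a measured 0.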
